A study of Caenorhabditis elegans with 2 samples.

Results

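Heterochromatin-linked synMuv B genes are 7 protein-coding genes of Caenorhabditis elegans, hpl-2, met-2, lin-65, lin-61, lin-13, lin-15B and lin-36, listed by name among the synMuv B genes that encode no DREAM or NuRD subunit. They are 7 of the 19973 protein-coding genes on the 6 nuclear chromosomes in the annotation. By position, 4 lie on III (hpl-2, met-2, lin-13 and lin-36), 2 on I (lin-65 and lin-61) and 1 on X (lin-15B). The data are ChIP-seq peak lists for LIN-40, an MTA-type NuRD subunit, in 2 biological replicates (numbered 3 and 4) of 1 group. The worms were whole hermaphrodites of strain OP485 at the young adult stage, 57.25 hours after release of starved L1 larvae. All carried LIN-40 fused at its C terminus to GFP and FLAG, and an anti-GFP antibody recovered it. The chromatin came from all tissues of the animal together, so a region bound in few cells and one bound weakly in many cannot be told apart. No group without the tag and no other stage was compared.

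The synMuv genes were found through the vulva: loss of a class A and a class B gene together gives extra vulval tissue, while either loss alone does not. HPL-2 is a heterochromatin protein 1 homologue. MET-2 is a SETDB1-type enzyme that methylates lysine 9 of histone H3, and LIN-65 is its partner in the nucleus. LIN-61 carries MBT repeats that bind methylated lysine 9, and LIN-13 is a zinc finger protein that acts with HPL-2 and LIN-61. LIN-15B and LIN-36 are THAP-domain proteins that repress transcription and share target genes with the DREAM complex. NuRD, which holds LIN-40, couples nucleosome remodelling to histone deacetylation, and several of its subunits are themselves synMuv proteins. The question asked of the lists was whether LIN-40 was recovered at the promoters of these 7 genes.

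The sequences below carry the regions on which the results turn, on WBcel235 (ce11) and in the direction of transcription of the gene named. The lin-13 sequence (chrIII:7710187-7710417, minus strand) holds the only summit of the authors' IDR list in a promoter window of the 7. The met-2 sequence (chrIII:8375305-8375505, plus strand) holds a weak summit of the pooled list just past its start. The lin-15B sequence (chrX:15725069-15725269, plus strand) holds a summit listed in replicate 3 alone. The sequence named hpl-2 chain (chrIII:10759149-10759349, minus strand) holds a strong summit upstream of the 2 genes that precede hpl-2. Capitals mark matches, on either strand, to the repeat GAGAGA, to CTGCGTCT, to the E-box CACGTG, to the E2F-like set of TTTGGCGC and TTTCCCGC with TTTGCCGC and TTTCGCGC, or to the CHR element in its form TTTGAA or in its form TTCGAA; the met-2 sequence has none.
lin-13: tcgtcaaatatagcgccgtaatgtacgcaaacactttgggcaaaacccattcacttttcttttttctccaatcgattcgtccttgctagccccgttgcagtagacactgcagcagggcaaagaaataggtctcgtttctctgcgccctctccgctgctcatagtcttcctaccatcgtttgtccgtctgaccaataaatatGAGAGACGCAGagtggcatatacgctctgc
met-2: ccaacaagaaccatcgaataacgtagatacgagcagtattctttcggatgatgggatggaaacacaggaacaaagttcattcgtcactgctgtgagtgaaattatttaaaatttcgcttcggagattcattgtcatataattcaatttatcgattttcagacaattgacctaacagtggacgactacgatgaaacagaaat
lin-15B: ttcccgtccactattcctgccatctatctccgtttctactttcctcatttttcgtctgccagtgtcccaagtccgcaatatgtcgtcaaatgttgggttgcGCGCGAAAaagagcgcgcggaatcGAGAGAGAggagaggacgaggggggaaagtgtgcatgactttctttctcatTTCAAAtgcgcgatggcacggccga
hpl-2 chain: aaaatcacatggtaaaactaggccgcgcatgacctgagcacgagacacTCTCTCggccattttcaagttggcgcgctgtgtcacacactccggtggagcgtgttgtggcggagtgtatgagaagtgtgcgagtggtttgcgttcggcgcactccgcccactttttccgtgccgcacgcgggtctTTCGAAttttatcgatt

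LIN-40 peaks of the IDR list were found at the promoter of lin-13 and at none of the other 6 genes. The IDR list holds 3066 regions that the authors label as thresholded on reproducibility, and 3045 of them overlapped a region of each replicate. The replicate lists hold 30000 regions each, down to signals of 5.67 in replicate 3 and 6.39 in replicate 4, so such an overlap can rest on a weak region. The lin-13 peak had the same rank, 1345, in the IDR and pooled lists, as did a peak ranked 2949. A place in the IDR list thus went with pooled signal and does not by itself show that a region recurred in each replicate. A gene's promoter window took in 1000 bp before and 200 bp after any of its transcript starts. The count of 1 in 7 (14.3%) stood near the background of 9.91% of all protein-coding genes (1979 of 19973), so it is not a result about these genes as a set, and no test was made. The pooled list, with 30000 regions that include background by design, had a summit in the window of 2 of the 7 (28.6%), lin-13 and met-2, against 30.9% of all protein-coding genes. Replicate 4's own list of 30000 named the same pair, against 32.9% of all genes. Replicate 3's own list named these and lin-15B, 3 of 7 (42.9%) against 32.6%. The pooled and replicate 4 shares lay just under their backgrounds, and that of replicate 3 lay above its own by 1 gene. The window of hpl-2, lin-65, lin-61 and lin-36 held no summit in any of the 4 lists.

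**Figure D1:**
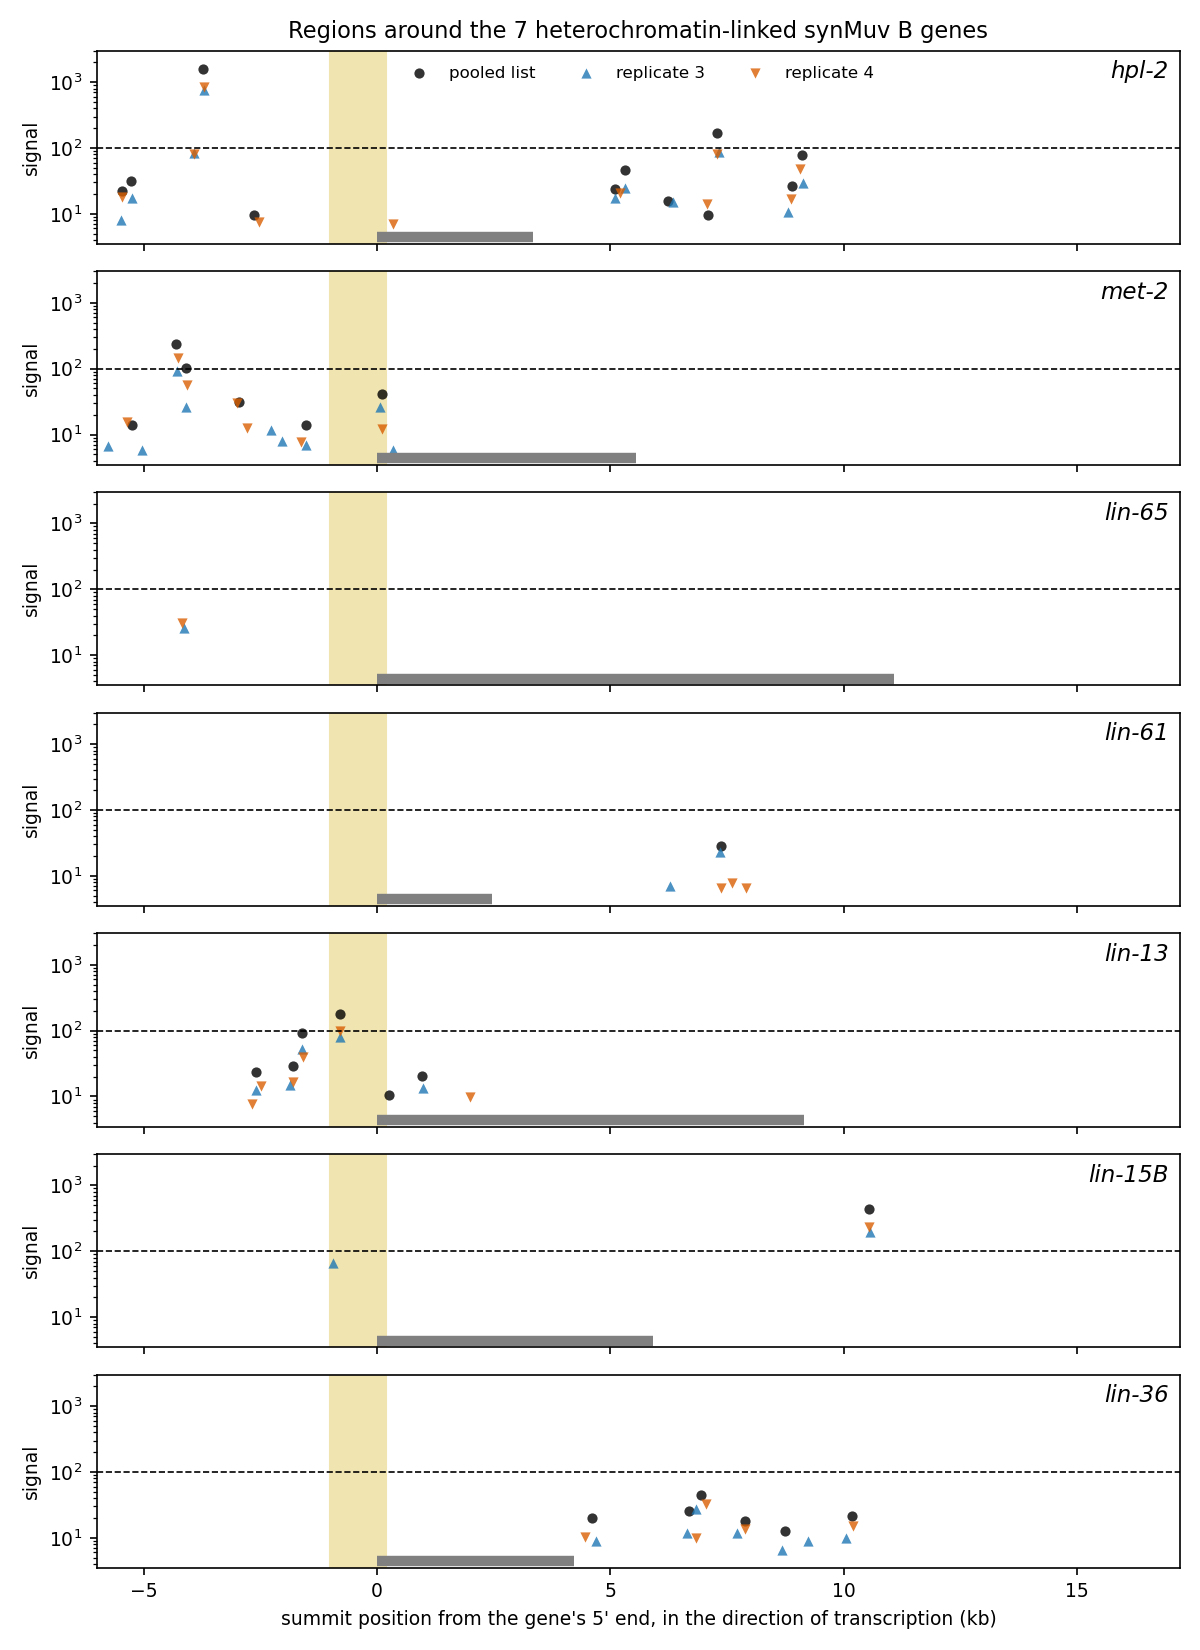
Signal (log scale) of every region whose summit lay from 6 kb before to 6 kb after each of the 7 genes, by its position from the gene's 5′ end in kb, in the pooled list (circles) and in the lists of replicates 3 and 4 (triangles). The grey bar is the gene, the shaded band the promoter window at its 5′ end, and the dashed line the lowest pooled signal of the IDR list (99.97), which applies to circles only; the circle in the band of lin-13 lies above it and that of met-2 below.

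The zinc finger gene lin-13 (WBGene00003002, III 7700338 to 7709491, minus strand) had its peak at III 7710207 to 7710417. The signal, the authors' enrichment value per region on a scale not stated, was 179 in the pooled list, 81.4 in replicate 3 and 99.3 in replicate 4, a mean of 90.3 ± 12.7 (SD, n = 2) over the replicates. The region ranked 1345 of 30000 in the pooled list, 1512 in replicate 3 and 1365 in replicate 4, so it was near the same place in each. Whether the lists share a scale is not stated. The signal of replicate 4 was 1.22 times that of replicate 3, close to the median of 1.15 over 3045 IDR peaks that overlapped a region of each replicate (5th to 95th percentile 0.722 to 1.94). Its −log10 q-value was at the ceiling of all 3 lists, which 6816 pooled regions, 5822 of replicate 3 and 6940 of replicate 4 share. The summit was the same base, 7710287, in the pooled list and in replicate 3, and 7 bp away in replicate 4.

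That peak was of middling strength and lay farther from the start than most. Of the 1979 protein-coding genes with an IDR summit in the window, 1039 had a stronger one; the median was 185, with quartiles of 134 and 278. The summit lay in intergenic sequence 796 bp upstream of the single annotated start of lin-13. The median position over the 1979 genes was -241 bp, with quartiles of -433.5 and -131, and 143 of them (7.23%) had their strongest summit at least as far upstream. No other gene of any kind had this summit in its window. The next protein-coding gene, C03B8.3, starts 2817 bp away on the opposite strand. The pooled list had 3 further summits between these starts. The strongest, at -1603 bp from lin-13 (signal 92.8, rank 3371; 52.6 in replicate 3 and 39.5 in replicate 4), was outside the window and just under the lowest signal of the IDR list, 99.97. The others were weaker, at -1802 bp (29.0) and -2590 bp (23.3). Within the gene the pooled list had summits at 258 bp (10.4, in coding sequence) and 965 bp (20.3, in an intron), both far below the peak.

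In order of the strongest IDR promoter summit, lin-13 took place 1040 of 1979. The genes next to it were rpl-28, a protein of the large ribosomal subunit (pooled signal 179.4, at -362 bp, with 108.7 in replicate 4 and no overlapping region in replicate 3), and ppgn-1, a mitochondrial protease gene (179.2, at -191 bp, with 87.0 and 90.3). The likeness is in pooled signal alone, over 2 replicates.

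The methyltransferase gene met-2 (WBGene00019883, III 8375300 to 8380848, plus strand) had a weak region over its start that did not reach the IDR list. Its pooled signal was 41.0 at rank 8630, with the summit 105 bp into the gene, in an intron. Replicate 3 gave 26.5 at rank 7087 and replicate 4 gave 12.2 at rank 19623, a mean of 19.4 ± 10.1 (SD, n = 2). The region was thus higher in replicate 3 by its signal and by its rank. The ratio of replicate 4 to replicate 3 was 0.462. Among pooled regions within 500 ranks of this one, 978 overlapped a region of each replicate, with a median ratio of 1.19 and a 5th to 95th percentile range of 0.365 to 3.95. A ratio as low was found in 10.4% of them. The −log10 q-value was 2.88 in the pooled list, 3.67 in replicate 3 and 0.71 in replicate 4.

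The THAP-domain gene lin-15B (WBGene00023497, X 15726123 to 15732025, plus strand) had a region in 1 replicate. In replicate 3 the region at X 15725124 to 15725235 had a signal of 66.4 and ranked 2048, and its −log10 q-value was at the ceiling that 5822 of the 30000 regions of that list share. Its summit lay 954 bp upstream of the start, just inside the window. Neither replicate 4 nor the pooled list held a region there, although the pooled list was made from both replicates. Regions of this kind were rare. Of the 3066 strongest regions of replicate 3, 57 (1.86%) overlapped no region of replicate 4 or of the pool, and replicate 4 had 47 (1.53%). Of these, 18 and 8 lay on X, and the share of X among all 3066 strongest regions is not given here, so no excess on X is shown. The nearest IDR summit lay 10545 bp downstream of the lin-15B start, past the end of the adjoining synMuv A gene lin-15A (pooled signal 435, rank 246; 197 in replicate 3 and 235 in replicate 4), and in no gene's window.

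The other THAP-domain gene, lin-36 (WBGene00003021, III 8016648 to 8020873, minus strand), had no summit from 1000 bp upstream to its end in any list. Its nearest pooled summit lay 4597 bp from its start, past the 3′ end of the gene, with a signal of 20.0 at rank 18072. The nearest IDR summit was 23121 bp upstream, in the window of K12H4.5 (signal 512).

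The MET-2 partner gene lin-65 (WBGene00022149, I 1755329 to 1766400, plus strand), the longest of the 7 at 11072 bp, and the MBT-repeat gene lin-61 (WBGene00003041, I 7248827 to 7251282, minus strand) also had no summit from 1000 bp upstream to the gene's end in the pooled list or in either replicate. With lin-36, this held for 3 of the 7 genes (42.9%) and for 56.9% of all protein-coding genes. The nearest region of lin-65 was listed in both replicates but not in the pool, at -4144 bp in replicate 3 (25.5) and at -4176 bp in replicate 4 (30.6). Its nearest IDR summit was 54118 bp away, in the windows of lsm-6 and Y71G12B.13. For lin-61, which starts 658 bp from the oppositely transcribed checkpoint kinase gene bub-1, the nearest IDR summit was 32563 bp away, in the windows of pfd-6 and rde-2.

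The heterochromatin protein 1 gene hpl-2 (WBGene00001996, III 10752195 to 10755530, minus strand) had no region at its own start, but a strong one upstream of the genes that precede it. Replicate 4 alone listed a region inside the gene, 342 bp past the nearest start in coding sequence, at a signal of 6.94 and rank 28768. On the same strand, 93 bp separate hpl-2 from the end of rnf-113, and rnf-113 directly adjoins K01G5.10 with 0 bp between them. The summit of an IDR peak at III 10758957 to 10759603 lay -727 bp from the start of K01G5.10 and -3719 bp from that of hpl-2. Its signal was 1591 in the pooled list (rank 18), 753 in replicate 3 (rank 18) and 848 in replicate 4 (rank 17), so both replicates placed it among their strongest regions. The same summit lay -58 bp from tasp-1, a protease gene that runs the other way. The lists do not show which of these genes the peak serves, and operons were not analysed here.

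At met-2 the arrangement was similar but weaker. Its start lies 127 bp from the end of lmbr-1, on the same strand. IDR summits lay -1255 bp from the start of lmbr-1 (pooled signal 235, rank 838; 91.1 in replicate 3 and 144 in replicate 4) and -1051 bp from it (103, rank 2949; 25.9 and 57.2), both just outside its window. The start nearest to the summit at -1051 bp was that of R05D3.13, 876 bp away, and that summit lay in no gene's window. The lists do not show which gene these peaks serve. In the replicates each of these IDR summits was higher in replicate 4, the reverse of the region at the met-2 start. When each gene was given the window of the first gene of such a chain (same strand, gaps under 500 bp, a setting chosen after the values were seen), hpl-2 joined lin-13. The count was then 2 of 7 (28.6%) against 12% of all protein-coding genes.

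Distances to the nearest LIN-40 summit differed widely among the 7. From the nearest start of each member to the nearest IDR summit they ran from 796 bp (lin-13) through 3719 (hpl-2), 4096 (met-2), 10545 (lin-15B), 23121 (lin-36) and 32563 (lin-61) to 54118 bp (lin-65). The median was 10545 bp over the 7 and 16479 bp over all protein-coding genes, whose quartiles were 5080 and 39982 bp. Of all genes 20.8% had an IDR summit as near as that of hpl-2 and 82.1% as near as that of lin-65. In the pooled list the medians were 4597 bp over the 7 and 4696 bp over all genes.

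**Figure D2:**
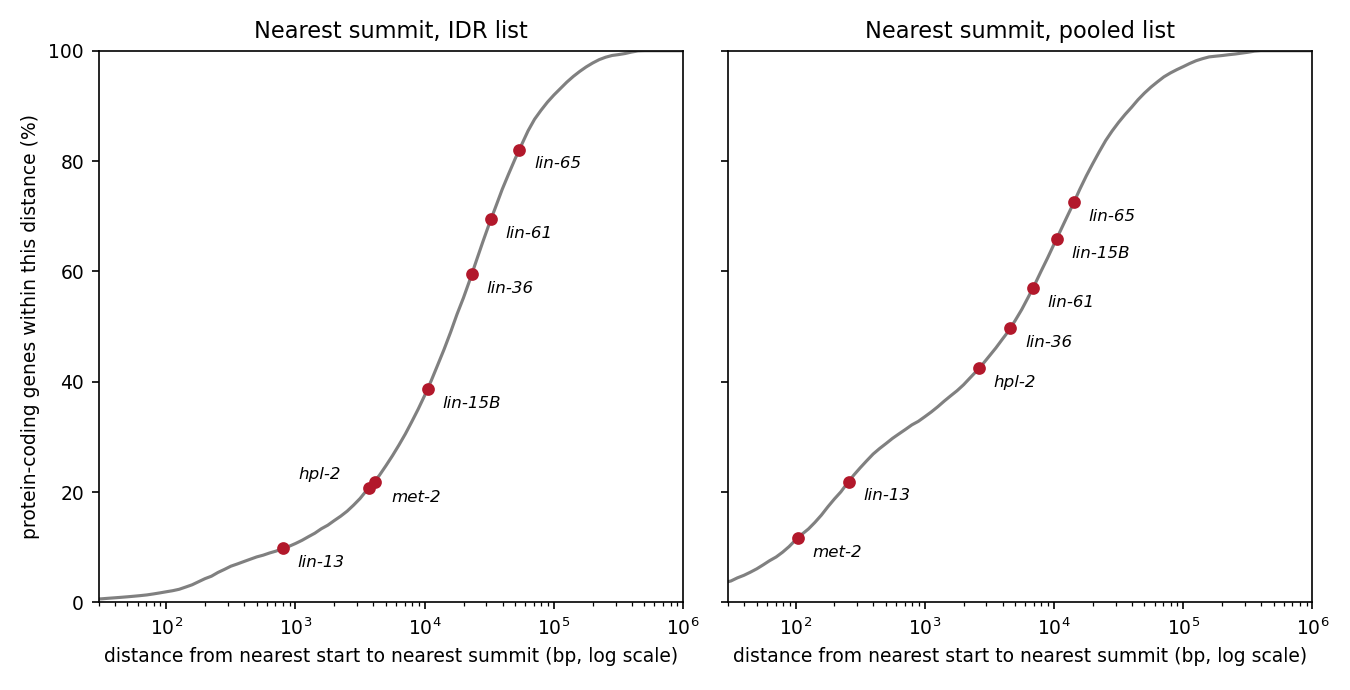
Distance from the nearest transcript start to the nearest summit (bp, log scale) against the percentage of protein-coding genes with a summit at least as near, in the IDR list (left) and the pooled list (right). The grey line is all protein-coding genes and the red points are the 7 genes, which run from 9.79% (lin-13) to 82.1% (lin-65) in the IDR list and from 11.7% (met-2) to 72.6% (lin-65) in the pooled list.

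Among related genes, 6 of the 8 DREAM genes had an IDR summit, and 0 of the 7 other genes of the MET-2 pathway and of readers of lysine 9 methylation had one. None of these counts was tested, and 0 of 7 is near the background. Those 7 are set-25, set-32, arle-14, hpl-1, cec-3, cec-4 and cec-8, and the background was 9.91% of all protein-coding genes. Pooled regions below the IDR threshold lay at set-25, which encodes another lysine 9 methyltransferase (79.4, at -28 bp; 47.8 in replicate 3 and 33.2 in replicate 4), and at the chromodomain gene cec-3 (77.5, at -130 bp; 27.6 and 46.8). They also lay at arle-14, a gene for a partner of MET-2 (56.9, at -98 bp; 29.6 and 29.8), and at the chromodomain gene cec-4 (13.6). These were weaker than the peak of lin-13 and, but for cec-4, stronger than the region of met-2. All of them were upstream of the start.

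The DREAM genes that had an IDR summit were lin-54 (944, at -359 bp), lin-53 (646, at -248 bp), lin-9 (583, at -171 bp), lin-35 (363, at -203 bp), efl-1 (340, at -192 bp) and lin-52 (123, at -74 bp). All but lin-52 had a stronger signal than lin-13, and all 6 summits lay closer to the start. In both replicates, lin-13 (81.4 and 99.3) stood above lin-52 (63.8 and 64.0) and below efl-1 (164 and 174). Of the DREAM genes, dpl-1 and lin-37 had none.

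Other synMuv B genes had an IDR summit at 3 of 4: the histone methyltransferase gene met-1 (258; 140 in replicate 3 and 117 in replicate 4), and ubc-9 (182; 63.8 and 124) and smo-1 (153; 72.5 and 81.4), which encode the SUMO-conjugating enzyme and SUMO. The RING finger gene tam-1 had a region just below the threshold (94.5). The pooled signals of ubc-9 and smo-1 lay on either side of that of lin-13 (179). NuRD and MEC genes had 2 of 9, dcp-66 (138) and mep-1 (111). Each gene was counted in 1 list only, so these 9 leave out lin-53 (646), which was counted under DREAM. The histone deacetylase gene hda-1 (99.2) and the MTA-type gene egl-27 (96.4) lay just below the threshold, and lin-40 itself had no region in its window in any list. A pooled region lay at 7 of the 9, against 30.9% of all protein-coding genes, and this was not tested. The pooled list includes background, and the region of mbd-2 ranked 19281 (18.5). SynMuv A genes had 0 of 4, synMuv C genes 1 of 4 (epc-1, a subunit of the Tip60 acetyltransferase complex, 313), and genes whose loss suppresses synMuv traits 2 of 5 (zfp-1, 575, and the chromodomain gene mrg-1, 362). The EGF gene lin-3, whose ectopic expression gives the extra vulvae of synMuv mutants, had a summit in neither the IDR nor the pooled list. Over all these lists 14 of 42 genes (33.3%) had an IDR summit, against 9.91% of all protein-coding genes. The lists were unlike: DREAM gave 6 of the 14 from 8 genes and other synMuv B 3 from 4. The sum is thus no measure of the lists in general. The lists were chosen with earlier results of these data known. Neither the sum nor the single lists, of 9 genes at most, were tested against that share.

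**Figure D3:**
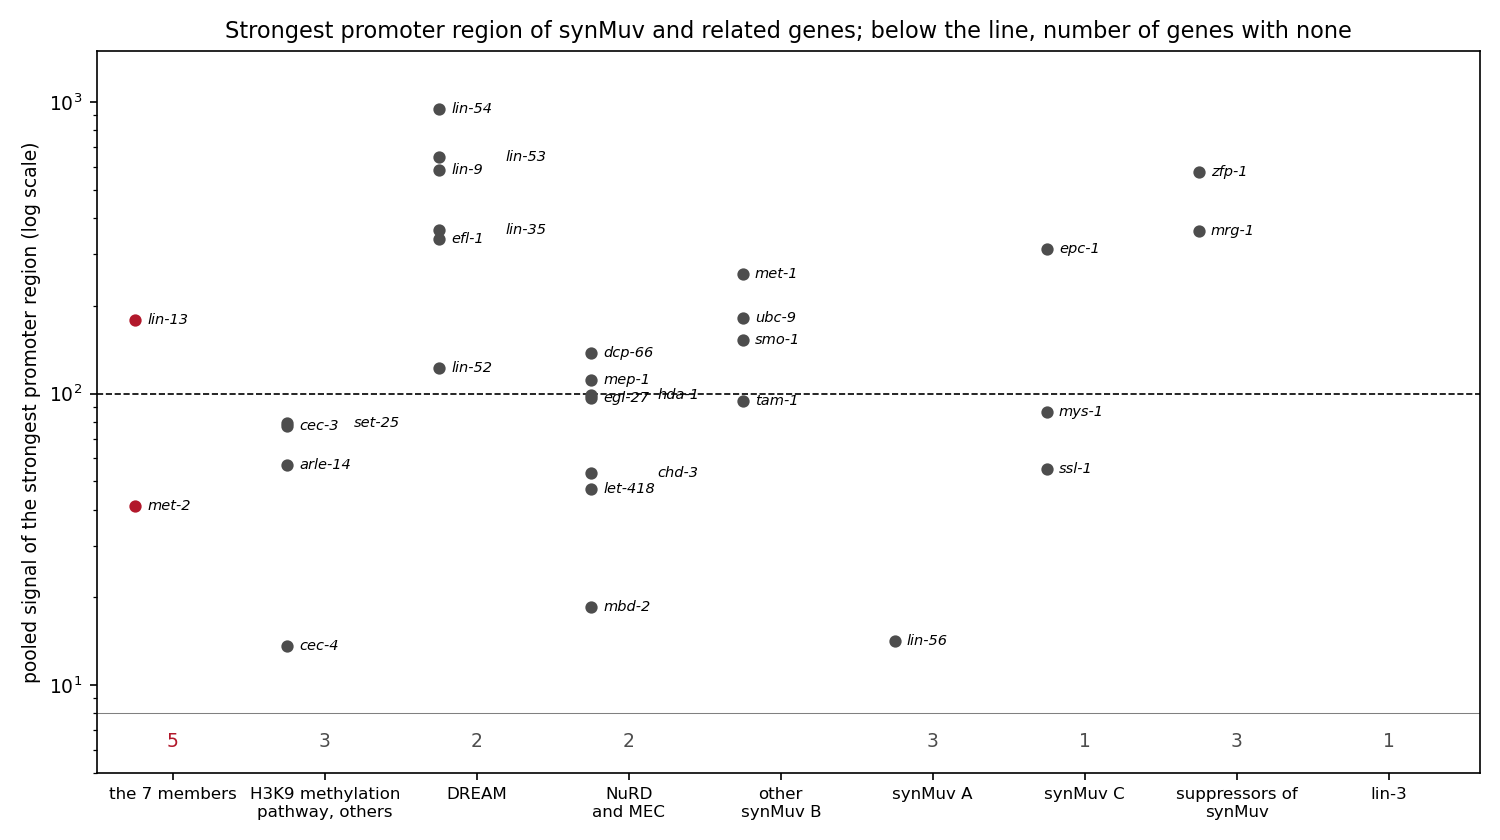
Pooled signal (log scale) of the strongest region in the promoter window of each gene, by gene list, with the 7 genes in red; numbers under the grey line count the genes of a list with no pooled region there (5 of the 7). The dashed line is the lowest signal of the IDR list (99.97), which lin-13 passed at 179 and met-2 missed at 41.0.

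The sequence at the lin-13 summit matched GAGAGA and CTGCGTCT, which were more frequent at IDR summits than at starts. It did not match CACGTG (10.3% of IDR summits and 4.4% of starts) or the E2F-like set, which were also more frequent at IDR summits. The met-2 region matched none of the motifs searched. Within 100 bp of the lin-13 summit, 48.8% of the bases were G or C, against a median of 42.8% over the 3066 IDR summits and 35.8% around protein-coding starts. GAGAGA matched once. It was found at 41.3% of IDR summits and 14% of starts. CTGCGTCT also matched once, on the strand opposite the sequence printed above, and the matches overlap in the run of capitals. It was found at 13.3% of IDR summits and 1.71% of starts. The window of the met-2 summit had 36.8% G or C. That of the lin-15B summit in replicate 3 had 51.7% G or C, 2 overlapping GAGAGA matches, 1 match to the E2F-like set (TTTGGCGC, TTTCCCGC, TTTGCCGC or TTTCGCGC, found at 5.48% of IDR summits and 2.43% of starts) and 1 to TTTGAA (30.9% and 44%). The summit upstream of the hpl-2 chain had 54.7% G or C, 1 GAGAGA match and 1 match to TTCGAA (11.6% and 12.1%).

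The starts themselves were searched for the same motifs, 100 bp either side of the most upstream start of each gene. GAGAGA matched at lin-13 alone, against 14% of all protein-coding starts, and the E-box CACGTG at lin-36 alone, against 4.4% of starts and 10.3% of IDR summits. CTGCGTCT and the E2F-like set matched at 0 of 7, against 1.71% and 2.43% of starts. Of the CHR element that DREAM binds, the form TTTGAA matched at 4 of 7 (44% of all starts) and the form TTCGAA at 2 of 7 (12.1% of all starts). None of these counts was tested. G or C made up from 27.4% (lin-65) to 37.3% (lin-61) of these windows. A match describes these letters and says nothing of what binds there.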

How the data were processed

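The authors called, per the labels and file listings, 1 list per replicate and 1 on both replicates pooled, each against a control alignment. The IDR list is labelled as thresholded on the irreproducible discovery rate, and its regions carry the pooled signal. Which caller, aligner and cutoff they used is not given in the sources. Each region carries the authors' signal, on an unstated scale. It also carries a −log10 q-value from the authors' calling. Read depth is unknown, since no counts are given.

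Regions on ce11 were placed by summit (column 2 plus column 10, written 1-based) on WBcel235, Ensembl release 115, with sequence from the RefSeq copy of that assembly; every region end lay within its chromosome. Genes were counted with Python 3.11.15, pandas 2.3.3 and numpy 2.4.6, and the placement was tested on planted summits. A replicate's value at a peak is the overlapping region (at least 1 bp) with the nearest summit. From ce10 only the number of IDR regions (4635) was used. The members, gene lists and motifs were chosen with earlier results of these data known. Named are the 7 genes, genes sharing their summits, the neighbours of lin-13 in signal, and listed pathway genes with an IDR summit; other genes were named after their values were seen. There was 1 group, so no test between groups was made.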

Additional observations from a re-analysis of the deposited data

How the results depend on the processing

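The count of members with an IDR summit stayed at 1, lin-13, with the window of 2000 and 200 bp, the most upstream start, the nearest start, any overlap, the stronger 50% of IDR peaks and the 4635 strongest pooled regions. It was 0 with the window of 500 and 100 bp, where lin-13 lies outside by construction, and 2 with the first gene of a chain, added after the values were seen. Leaving out a replicate gave 1 to 2, counted in the stronger regions of the other replicate's own list and not in an IDR list. There lin-15B joined from replicate 3 alone. The share of all protein-coding genes, 9.91%, was 7.81% and 12.9% with those windows, 9.12% with the most upstream start, 7.61% with the nearest start, 10.7% with overlap, 5.81% with the stronger 50%, 13.4% with the 4635 pooled regions, 12% with chains, and 9.9% to 9.98% without a replicate. The rank of met-2 ran from 7087 to 19623 without a replicate, and that of lin-13 from 1365 to 1512. Within 500 and 100 bp neither gene had a pooled summit, so no rank is given. Motif matches within 150 bp of the summit were the same in 15 of 18 cases at lin-13, met-2 and lin-15B, and CHR matches were added at lin-13 and lin-15B. The summit upstream of the hpl-2 chain, outside these cases, also gained 1 match to TTTGAA. No paired analysis was possible because there was 1 group. With 2 replicates and no read counts, a region missing from a list is not shown to be absent.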
